A study of Mus musculus with 6 samples.

Results

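The genes described here are 38 of the 40166 genes in the count table, chosen by name as members of the integrated stress response and the unfolded protein response. They form 2 groups, 18 genes around the transcription factor ATF4 (the ATF4 branch) and 20 genes of protein folding and degradation in the endoplasmic reticulum (ER; the ER branch). In tumors treated with rigosertib (RGS), these groups differed from vehicle in opposite directions. Of the 18 ATF4 branch genes, 13 were lower and 3 higher in RGS tumors, and of the 19 ER branch genes with enough counts to test, 12 were higher and 3 lower. Over all tested genes 16.3% were higher and 16.5% lower. The 3 higher ATF4 branch genes and the 3 lower ER branch genes were close to those shares. The largest differences within each branch were lower expression of Trib3 and Phgdh in the ATF4 branch, higher expression of Calr and Creld2 in the ER branch, and lower expression of Ero1l, which moved against its group.

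RNA was sequenced from 6 samples given as subcutaneous tumors of YUMM3.3, a BRAF-mutant mouse melanoma line, grown in immunocompetent C57BL/6 mice. Vehicle mice received water and RGS mice received rigosertib, a small-molecule RAS mimetic, at 300 mg/kg, both by oral gavage 5 days a week. Tumors were taken after 17 days of treatment, and each group has 3 samples, called tumors below. Whether each sample came from its own mouse is not stated. All tumors share the line and its BRAF mutation, the strain and the route, so the comparison concerns 1 tumor line. The study's methods give young adult mice, and the labels name the samples as tumor tissue. Marker genes described below go against whole tumor tissue, with 0 counts of hemoglobin genes, Cd3e, Cd8a and Adgre1 in every sample. Tumors are named below by their replicate numbers, 7, 8 and 9 with vehicle and 10, 11 and 12 with RGS, and values are always listed in that order.

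As background, cells react to shortage of amino acids, to viral RNA, to lack of heme and to misfolded protein in the ER through kinases that phosphorylate the initiation factor eIF2α. This slows general protein synthesis while the mRNA of Atf4 is translated better, and ATF4 then drives genes for amino acid synthesis, redox balance and feedback on the response. Misfolded protein in the ER is also sensed by IRE1 (Ern1), which splices the mRNA of Xbp1, and by ATF6, and both arms raise chaperones, oxidoreductases and the machinery that sends failed proteins back to the cytosol for degradation. Counts per gene measure neither splicing of Xbp1 nor translation of Atf4, so the activity of these sensors was not measured here.

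Read counts per tumor summed to between 13837932 and 32555494, with all 3 vehicle libraries deeper than all 3 RGS libraries. In the counts as deposited this depth cannot be told apart from treatment. With every library thinned to the smallest, all 31 members past the threshold kept their direction and their call, and no further member passed. Levels are CPM, which are counts scaled to a common library size with edgeR's TMM factors. The labels name the tumors only as replicates. The p-values set the difference between groups against the spread between these samples, estimated with information from all tested genes. That spread may be technical in part. Transcripts of the mitochondrial genome took 2.13% to 3.20% of counts with vehicle and 5.60% to 8.22% with RGS, and ribosomal protein genes 5.16% to 9.41% and 2.85% to 3.35%, so neither share overlapped between the groups. Leaving out the mitochondrial genes changed the fit little, with a median log2 fold change over all genes of -0.053 in place of -0.048. The same 31 members again passed in the same direction. Such a fit cannot show what the differing mitochondrial share reflects, and the part of either share was not tested. The labelled tissue was checked against marker lists. Of 8 melanocyte lineage genes, Mlana, Tyr, Dct and Slc45a2 had 0 counts in all 6 tumors. Only Pmel and Mitf could be tested, neither past the threshold. The summed level was 4.94 to 7.67 CPM with vehicle and 4.52 to 10.5 CPM with RGS. Sox10, with which the study marked melanoma cells in human tumors, had 18 counts in RGS replicate 11 and 0 in every other tumor. These lineage genes thus do not mark the samples as melanoma, and the reason was not tested. The 4 hemoglobin genes and the T-cell genes Cd3e, Cd3d and Cd8a also had 0 counts throughout, as did the macrophage gene Adgre1. These zeros go against the label of whole tumor tissue with its blood and host cells. The levels below may therefore not be those of whole tumors. Of 8 fibroblast genes, 7 were tested, and 4 were lower and 1 higher with RGS, with Lum at 0 throughout and a summed level of 407 to 602 CPM with vehicle and 294 to 321 CPM with RGS. Endothelial genes summed to 2.49 to 4.13 and 6.32 to 13.9 CPM (Emcn and Erg at 0, 1 of 4 tested genes higher), keratinocyte genes to 0.399 to 1.72 and 6.77 to 22.8 CPM (Krt1, Trp63 and Dsg3 at 0, 1 of 2 tested genes higher, Ivl). Macrophage genes summed to 58.8 to 64.7 and 65.4 to 88.5 CPM, nearly all of it Cd68 (0 of 1 tested gene past the threshold), and B and plasma cell genes to 198 to 240.2 and 255 to 273 CPM, nearly all of it Sdc1, with Ms4a1, Igkc and Ighm at 0 (0 of 2). T and NK cell genes (1 of 1 tested gene higher, Trac), neutrophil genes (0 of 1) and erythroid genes (1 of 1 higher, Alas2) stayed under 1.5 CPM in sum in every tumor, and muscle genes (0 of 2) and adipocyte genes (0 of 1) under 15 CPM. The fibroblast, endothelial, keratinocyte, macrophage, B and plasma cell, and T and NK cell sums did not overlap between the groups, and their part in the results was not tested. In bulk RNA, fewer cells of a type and less RNA per cell cannot be told apart.

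To ask how the stress response genes differed between RGS and vehicle, the 15355 genes whose median count reached 5 in either group were tested together with edgeR's quasi-likelihood test, and an adjusted p (Benjamini-Hochberg over these genes) under 0.05 was taken as the threshold. This threshold was passed by 32.8% of all tested genes, 16.3% of them higher and 16.5% lower in RGS tumors. In the ATF4 branch 72.2% of the 18 genes were lower and 16.7% higher, and in the ER branch 15.8% of the 19 tested genes were lower and 63.2% higher. The share of lower genes in the ATF4 branch and of higher genes in the ER branch was thus several times the share among all genes. The ATF4 branch's share of higher genes and the ER branch's share of lower genes were close to it. Every tested member had at least 417 counts in every tumor, while a median of 5 in 1 group sufficed to be tested. A given difference passes the threshold more readily at higher counts, and shares among genes with similar counts were not computed. The median log2 fold change was -0.94 in the ATF4 branch, 0.66 in the ER branch and -0.05 over all tested genes.

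The 2 groups of tumors were also apart in single values. In the ATF4 branch all 3 RGS tumors were below all 3 vehicle tumors for 14 genes and above them for 4, so no gene overlapped. In the ER branch RGS tumors were above for 13 genes and below for 3, and 3 overlapped. Among all tested genes 24.1% had every RGS tumor below and 21.7% every RGS tumor above. The summed level of the ATF4 branch was 4774, 5161 and 4976 CPM in the vehicle tumors and 3022, 3156 and 3239 CPM in the RGS tumors. That of the ER branch was 5256, 5130.4 and 4875 CPM with vehicle and 7192, 6989.9 and 7488 CPM with RGS. In vehicle tumors both sums were thus of similar size, and in every RGS tumor the ER branch sum was over 2 times that of the ATF4 branch. With 3 tumors against 3, an exact two-sided permutation test of such a single value cannot give a p below 0.1, so the calls rest on the fit over all genes.

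**Figure D1:**
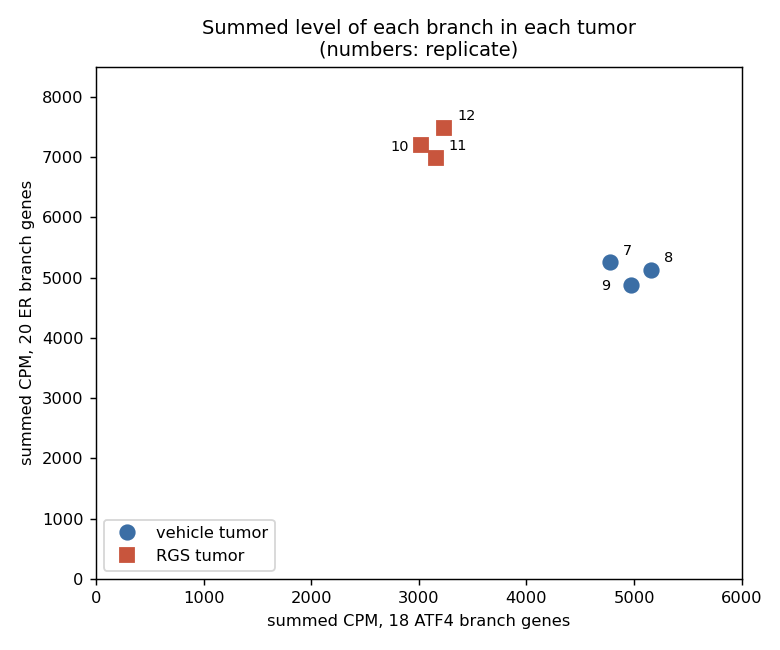
Summed CPM of the 18 ATF4 branch genes (x axis) against that of the 20 ER branch genes (y axis), 1 point per tumor with its replicate number, vehicle as circles and RGS as squares. The 3 RGS tumors lie at 3022 to 3239 CPM on the x axis and 6989.9 to 7488 CPM on the y axis, away from the vehicle tumors at 4774 to 5161 and 4875 to 5256 CPM.

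Apart from Derl3, every member had at least 417 counts in every tumor. For a few genes with very close replicates, such as Trib3 with RGS and Ppp1r15b in both groups, counting error alone is about as large as the spread between tumors. The SD was a median of 10.5% of the mean with vehicle and 10.1% with RGS, and it was widest for Sec61b with vehicle (32.7%) and Creld2 with RGS (24.6%). The plot of each gene by tumor shows this spread beside the differences.

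**Figure D2:**
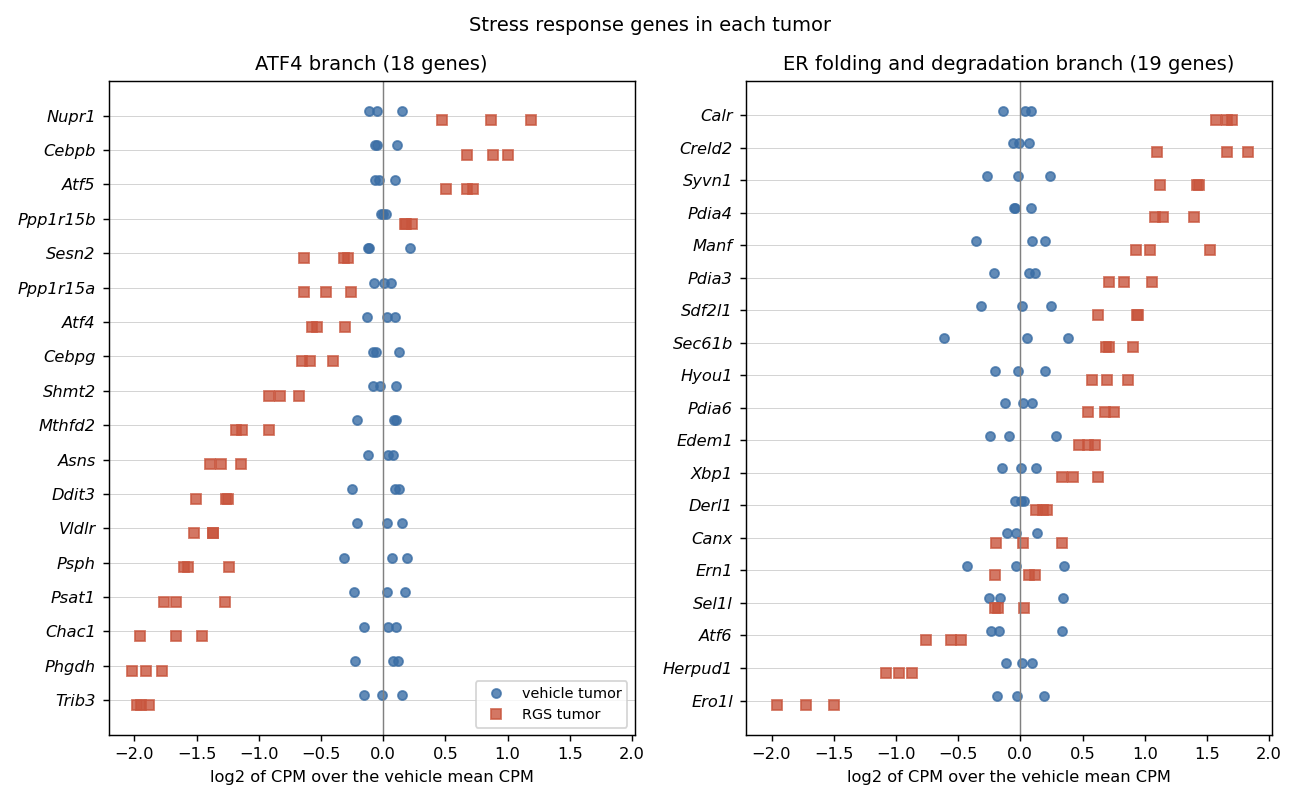
Each tested member in each tumor, as log2 of its CPM over the mean CPM of the vehicle tumors (x axis), with vehicle tumors as circles and RGS tumors as squares, genes ordered by log2 fold change within each branch. For 17 genes (14 of the ATF4 branch and 3 of the ER branch) all squares lie left of all circles, for 17 genes (4 and 13) all lie right of them, and Canx, Ern1 and Sel1l overlap.

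The transcription factors of the ATF4 branch did not share a direction, with 3 of 6 lower and 3 higher. The shares over all tested genes were 16.5% lower and 16.3% higher. Atf4 itself was measured at 698, 779 and 817 CPM with vehicle and 515, 528 and 618 CPM with RGS, and all RGS values lay below the vehicle values by a modest margin (log2 fold change -0.47 ± 0.15, adjusted p = 0.0220 from edgeR's quasi-likelihood test, where ± is the standard error here and below). Its call was lost when vehicle replicate 8 or 9 or RGS replicate 10 or 11 was left out, with an adjusted p of up to 0.109, while the log2 fold change stayed between -0.57 and -0.41. Ddit3, which encodes CHOP, a factor linked to cell death in prolonged ER stress, was at 148, 193 and 189 CPM with vehicle and 62.4, 73.7 and 74.4 CPM with RGS (log2 fold change -1.33 ± 0.16, adjusted p = 5.86e-06 from edgeR). The mean with RGS was 0.397 times that with vehicle, with a wide gap between the groups. Ddit3 shares 68 exon bases with Mars on the opposite strand, a gene with 1954 to 7006 counts per tumor that was lower as well (log2 fold change -0.71), and the strand setting of the counting is not given in the sources used here. Cebpg, a partner of ATF4 in dimers, was lower by a smaller amount (log2 fold change -0.54 ± 0.17, adjusted p = 0.0164, edgeR), a call that was lost when vehicle replicate 8 or 9 or RGS replicate 11 or 12 was left out (adjusted p up to 0.0740).

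Cebpb, Atf5 and Nupr1 were the 3 ATF4 branch genes that rose. Cebpb, a bZIP factor that also acts in inflammation and differentiation, was at 282, 253 and 249.6 CPM with vehicle and 483, 525 and 417 CPM with RGS (log2 fold change 0.86 ± 0.15, adjusted p = 2.42e-04 from edgeR). It shares 312 exon bases with Tmem189 on the opposite strand, a gene with 544 to 1835 counts per tumor that was higher too (log2 fold change 1.56). Cebpb itself had 5809 to 10204 counts. Atf5, a bZIP factor translated under eIF2α phosphorylation and linked to the mitochondrial stress response, was at 294, 269 and 263 CPM with vehicle and 390.4, 438 and 454 CPM with RGS (log2 fold change 0.64 ± 0.15, adjusted p = 0.00261, edgeR). Nupr1, a small stress-induced nuclear protein, was at 113, 108 and 130.3 CPM with vehicle and 163, 214 and 266 CPM with RGS (log2 fold change 0.87 ± 0.18, adjusted p = 9.43e-04, edgeR). In all 3 the lowest RGS tumor stood above the highest vehicle tumor, and Nupr1 varied most among RGS tumors. These calls held with each tumor left out and in all other fits.

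The enzymes that make serine, asparagine and mitochondrial one-carbon units, all known targets of ATF4, were lower without exception, 6 of 6. Their log2 fold changes ran from -1.90 to -0.81. Over all tested genes 16.5% were lower. Phgdh, the first enzyme of serine synthesis from glucose, was at 718, 915 and 889 CPM with vehicle and 208, 224 and 246 CPM with RGS. The RGS tumors thus held between 208 and 246 CPM against at least 718 CPM in every vehicle tumor (log2 fold change -1.90 ± 0.16, adjusted p = 4.96e-08 from edgeR's quasi-likelihood test). The second enzyme of this path, Psat1, was at 561, 748 and 675 CPM with vehicle and 274, 195 and 209 CPM with RGS (log2 fold change -1.55 ± 0.17, adjusted p = 1.68e-06, edgeR). The last, Psph, was at 79.9, 105 and 114 CPM with vehicle and 32.8, 42.2 and 33.6 CPM with RGS (log2 fold change -1.46 ± 0.19, adjusted p = 8.49e-06, edgeR). All 3 steps of the path were therefore lower. Psph shares 452 exon bases with Cct6a on the opposite strand, which had 3737 to 15626 counts per tumor against 549 to 2940 for Psph and a log2 fold change of -0.80, so reads of Cct6a in the count of Psph cannot be told apart from its own if strand was ignored.

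Shmt2 and Mthfd2 carry the carbon of serine into folates inside mitochondria. Shmt2 was at 376, 332 and 345 CPM with vehicle and 186, 219 and 198 CPM with RGS (log2 fold change -0.81 ± 0.15, adjusted p = 3.68e-04, edgeR), the smallest difference of these enzymes. Mthfd2 was at 172, 175 and 140.5 CPM with vehicle and 86.2, 74.0 and 71.6 CPM with RGS (log2 fold change -1.07 ± 0.16, adjusted p = 5.00e-05, edgeR). Asns, asparagine synthetase, was at 311, 304 and 271 CPM with vehicle and 112, 134 and 120.0 CPM with RGS (log2 fold change -1.28 ± 0.15, adjusted p = 4.05e-06, edgeR). None of the 6 enzymes overlapped between groups, and none lost its call in any of 18 other fits. Among all tested genes 24.1% had every RGS tumor below every vehicle tumor.

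Genes that feed back on the response or carry out its stress outputs were lower or not past the threshold. Trib3, a pseudokinase that binds and restrains ATF4, showed the largest difference of all 37 tested members, at 123, 137 and 111 CPM with vehicle and 33.5, 31.4 and 32.0 CPM with RGS (log2 fold change -1.93 ± 0.17, adjusted p = 8.05e-08 from edgeR). Its 3 RGS values lay within 3 CPM of each other. Chac1, a glutathione-degrading enzyme induced by ATF4 and CHOP, was at 267, 255 and 223 CPM with vehicle and 63.8, 78.1 and 90.3 CPM with RGS (log2 fold change -1.68 ± 0.17, adjusted p = 4.97e-07, edgeR), again far below every vehicle tumor. Vldlr, a lipoprotein receptor that ATF4 raises under ER stress, was at 211, 195 and 164 CPM with vehicle and 73.7, 73.8 and 66.3 CPM with RGS (log2 fold change -1.42 ± 0.16, adjusted p = 2.10e-06, edgeR).

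Ppp1r15a encodes GADD34, the inducible subunit that directs a phosphatase to eIF2α, and Ppp1r15b encodes its constitutive counterpart CReP. Ppp1r15a was at 156, 149.6 and 141 CPM with vehicle and 108, 95.6 and 124 CPM with RGS, with no overlap (log2 fold change -0.44 ± 0.16, adjusted p = 0.0364, edgeR), but its call was lost without vehicle replicate 8, RGS replicate 10 or RGS replicate 11 (adjusted p up to 0.169). Ppp1r15b was at 84.1, 86.8 and 85.2 CPM with vehicle and 96.4, 100. and 97.0 CPM with RGS and did not pass the threshold (log2 fold change 0.20 ± 0.15, adjusted p = 0.350, edgeR), although all RGS tumors were above all vehicle tumors by a small margin. Sesn2, which restrains mTORC1 when leucine is short, was at 100.1, 79.9 and 79.2 CPM with vehicle and 71.0, 55.5 and 69.5 CPM with RGS and also did not pass (log2 fold change -0.40 ± 0.17, adjusted p = 0.0816, edgeR). With upper-quartile factors, library size only or a gene length offset in place of the reported scaling Sesn2 did pass, with an adjusted p down to 0.0268.

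Since most ATF4 branch genes moved together, their promoters were searched for a core of the C/EBP-ATF response element (CARE) to which ATF4 binds, spelled TGATGNAA, on both strands, in windows from 250 bases before to 50 bases after the start of each gene (RefSeq, GRCm38.p6). Of the 38 members 33 had a window. The core was found for 5 of 17 ATF4 branch genes (Asns, Chac1, Nupr1, Trib3 and Vldlr) and for 1 of 16 ER branch genes (Herpud1), beside 4.51% of all 27025 genes with a window. The matches that lie before a start are shown with up to 20 bases on each side, ending at the base before the start, with the core in capitals, 5′ to 3′ on the strand of the gene. Asns is printed from chr6:7693210-7693252 (minus strand), Chac1 from chr2:119351029-119351076 (plus), Vldlr at its second start from chr19:27216800-27216847 (plus) and Nupr1 from chr7:126625553-126625600 (minus).
Asns: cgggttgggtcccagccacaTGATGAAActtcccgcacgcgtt
Chac1: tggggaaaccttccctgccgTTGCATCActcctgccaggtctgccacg
Vldlr: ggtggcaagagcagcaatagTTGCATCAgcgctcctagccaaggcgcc
Nupr1: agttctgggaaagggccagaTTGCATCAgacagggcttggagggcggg
In Chac1, Vldlr and Nupr1 the core reads on the opposite strand with the same 8 letters. Asns, Chac1, Vldlr and Trib3 were lower in RGS tumors while Nupr1 was higher, so genes with the core in this window were found in both directions.

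The 3 transducers of the ER branch differed among themselves. Xbp1 was at 60.2, 65.4 and 54.1 CPM with vehicle and 92.1, 75.4 and 80.1 CPM with RGS, higher in RGS tumors by a small amount (log2 fold change 0.46 ± 0.17, adjusted p = 0.0397 from edgeR). This call was lost when any tumor but vehicle replicate 7 was left out (adjusted p up to 0.145) and with upper-quartile factors or library size only (adjusted p up to 0.173). Atf6 was lower, at 270.2, 189 and 181 CPM with vehicle and 154, 126 and 145 CPM with RGS (log2 fold change -0.59 ± 0.17, adjusted p = 0.0130, edgeR), and lost its call without RGS replicate 11 (adjusted p = 0.0725, edgeR). Ern1 was at 116, 89.0 and 67.8 CPM with vehicle and 98.8, 95.6 and 79.1 CPM with RGS, with overlapping groups and no call (log2 fold change 0.00 ± 0.19, adjusted p = 0.994, edgeR).

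Chaperones and lectins of the ER lumen were higher with RGS in 5 of 6 cases, beside 16.3% of all tested genes. Calr, calreticulin, a calcium-binding lectin that holds new glycoproteins and is displayed on the surface of cells in immunogenic cell death, was at 458, 534 and 517 CPM with vehicle and 1497, 1594 and 1637 CPM with RGS. Every RGS tumor stood near 3 times the vehicle level (log2 fold change 1.65 ± 0.15, adjusted p = 1.33e-07 from edgeR), with little spread within either group, and per base of transcript Calr went from the fourth to the highest level of the 38 genes. Its membrane-bound relative Canx, calnexin, was at 757, 674 and 642 CPM with vehicle and 869.7, 701 and 605 CPM with RGS and its groups overlapped (log2 fold change 0.07 ± 0.16, adjusted p = 0.777, edgeR). A difference between these 2 lectins of the same folding cycle was not tested. Hyou1, an HSP70-like exchange factor for the chaperone BiP, was at 308, 264 and 233 CPM with vehicle and 435, 490.0 and 399.6 CPM with RGS (log2 fold change 0.72 ± 0.16, adjusted p = 0.00167, edgeR).

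Creld2, Manf and Sdf2l1 are small lumenal proteins induced in the unfolded protein response. Creld2 was at 26.8, 25.3 and 24.5 CPM with vehicle and 54.8, 80.9 and 90.8 CPM with RGS (log2 fold change 1.56 ± 0.20, adjusted p = 9.14e-06, edgeR), with RGS replicate 10 well below the other RGS tumors and still at about 2 times any vehicle tumor. Manf, a secreted factor that binds BiP, was at 84.7, 116 and 124 CPM with vehicle and 223, 206 and 311 CPM with RGS (log2 fold change 1.19 ± 0.19, adjusted p = 8.39e-05, edgeR). It shares 146 exon bases with Dcaf1 on the opposite strand, whose 489 to 2685 counts per tumor were below those of Manf and which was lower with RGS (log2 fold change -0.83). Sdf2l1, a cochaperone against aggregation, was at 25.4, 31.9 and 37.4 CPM with vehicle and 48.8, 60.8 and 60.5 CPM with RGS (log2 fold change 0.85 ± 0.20, adjusted p = 0.00260, edgeR).

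The 3 protein disulfide isomerases among the members rose, and Ero1l, an oxidase that recharges such isomerases, fell. Pdia3, the isomerase that works with calnexin and calreticulin, was at 638, 776 and 801 CPM with vehicle and 1317, 1209 and 1538 CPM with RGS (log2 fold change 0.88 ± 0.16, adjusted p = 2.70e-04 from edgeR). Pdia4 was at 217, 238 and 216 CPM with vehicle and 494, 474 and 589 CPM with RGS (log2 fold change 1.22 ± 0.15, adjusted p = 6.75e-06, edgeR), and Pdia6 was at 477, 553 and 527 CPM with vehicle and 759, 832 and 874 CPM with RGS (log2 fold change 0.66 ± 0.15, adjusted p = 0.00184, edgeR). For each of them the lowest RGS tumor was above the highest vehicle tumor. Such a gap was found for 21.7% of all tested genes, and 16.3% of all tested genes were called higher. Ero1l (listed as Ero1a in RefSeq), which is also known as a hypoxia-induced gene, was at 999, 856 and 767 CPM with vehicle and 309, 226 and 266 CPM with RGS. It was the largest difference of the ER branch (log2 fold change -1.71 ± 0.17, adjusted p = 3.41e-07, edgeR) and held in every other fit, with log2 fold changes from -1.85 to -1.60. Outside the members, the isomerase Pdia5 and the second oxidase Ero1lb did not pass the threshold (log2 fold changes 0.12 and 0.51, adjusted p = 0.763 and 0.105, edgeR).

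Of the members in ER-associated degradation 2 of 5 tested genes were higher and 1 was lower, beside 16.3% and 16.5% over all genes. Of 13 further genes of this path in the list of other ER genes described below, grouped after their values were seen, 7 were higher and the other 6 did not pass the threshold. Syvn1, the ubiquitin ligase HRD1 at the center of this path, was at 55.0, 46.1 and 38.7 CPM with vehicle and 101, 125 and 126 CPM with RGS (log2 fold change 1.33 ± 0.18, adjusted p = 1.41e-05 from edgeR). Its partner Sel1l was at 301, 213 and 199 CPM with vehicle and 242, 206 and 209.5 CPM with RGS, with overlapping groups and no call (log2 fold change -0.12 ± 0.17, adjusted p = 0.641, edgeR). Edem1, a lectin that takes misfolded glycoproteins out of the folding cycle, was at 128, 98.8 and 89.0 CPM with vehicle and 154, 159 and 146 CPM with RGS (log2 fold change 0.54 ± 0.17, adjusted p = 0.0169, edgeR), and lost its call without vehicle replicate 8 or 9 or RGS replicate 11 (adjusted p up to 0.0785) and with library size only (adjusted p = 0.0916, edgeR). Herpud1, a membrane protein that organizes the ligase complex and is a target of ATF4 as well as of the ER arms, was lower, at 115, 133 and 126 CPM with vehicle and 68.3, 59.1 and 63.5 CPM with RGS (log2 fold change -0.97 ± 0.16, adjusted p = 1.17e-04, edgeR).

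Derl1, a channel component, was at 199.7, 196 and 189.8 CPM with vehicle and 226, 221 and 213 CPM with RGS and did not pass the threshold (log2 fold change 0.17 ± 0.14, adjusted p = 0.380, edgeR), although the groups did not overlap. Derl3, its relative that is used mostly by secretory cells, had 8, 1, 0, 10, 0 and 1 counts and was not tested. Sec61b, a subunit of the translocon through which new chains enter the ER, was at 19.3, 30.6 and 38.4 CPM with vehicle and 47.5, 48.2 and 55.1 CPM with RGS (log2 fold change 0.77 ± 0.22, adjusted p = 0.0123, edgeR). Without RGS replicate 12 its adjusted p was 0.0627.

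The ER branch promoters were searched for the ER stress response element (ERSE), spelled CCAAT, then 9 bases of any kind, then CCACG, the site through which ATF6 and XBP1 act with NF-Y, and for its relative ERSE-II, spelled ATTGG, then 1 base, then CCACG. ERSE was found for 6 of 16 ER branch genes with a window (Calr, Canx, Creld2, Derl3, Pdia6 and Syvn1), for 0 of 17 ATF4 branch genes and for 37 of all 27025 genes (0.137%). ERSE-II was found for Herpud1 alone among the members and for 12 genes in all. A shorter core of the unfolded protein response element, ACGTGG, was found for 3 of 16 ER branch genes, 1 of 17 ATF4 branch genes and 9.40% of all genes, and it overlaps ERSE-II in Herpud1. The ERSE matches of the 4 genes that were higher and of Canx, which was not past the threshold, are shown with 20 bases on each side and the element in capitals, together with Herpud1, the ER branch gene that holds both a CARE core (the first capitals) and ERSE-II (the second). They lie at chr8:84847055-84847113 (Calr, minus), chr15:88819500-88819558 (Creld2, plus), chr19:6046512-6046570 (Syvn1, plus), chr12:17266471-17266529 (Pdia6, plus), chr11:50325780-50325838 (Canx, minus) and chr8:94386297-94386407 (Herpud1, plus) of GRCm38.p6 in RefSeq.
Calr: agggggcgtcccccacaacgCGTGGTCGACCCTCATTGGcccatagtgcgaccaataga
Creld2: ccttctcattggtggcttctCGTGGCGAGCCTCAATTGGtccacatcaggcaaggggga
Syvn1: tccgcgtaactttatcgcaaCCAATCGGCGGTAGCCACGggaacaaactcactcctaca
Pdia6: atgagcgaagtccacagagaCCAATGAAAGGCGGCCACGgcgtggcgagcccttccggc
Canx: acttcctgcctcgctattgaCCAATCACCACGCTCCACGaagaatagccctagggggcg
Herpud1: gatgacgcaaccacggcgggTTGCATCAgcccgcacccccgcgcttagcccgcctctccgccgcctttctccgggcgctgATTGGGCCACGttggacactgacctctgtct
The element reads on the opposite strand in Calr and Creld2. Of the 5 tested genes with ERSE in the window, 4 were higher in RGS tumors. Higher genes made up 63.2% of the 19 tested ER branch genes and 16.3% of all tested genes. Pdia3, Pdia4, Xbp1, Edem1, Sdf2l1 and Sec61b were higher as well with none of these letters in their windows, and Hyou1 and Manf had no window. Herpud1, which holds the CARE core, ERSE-II and the shorter core, was lower, and Ero1l was lower with none of these letters. A link between matches and direction was not tested. Such matches describe the letters and show no binding. As the members were chosen by name for these pathways, CARE and ERSE shares above those of all genes are no result of the RNA counts.

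Other genes of these pathways, from lists that leave out the members, were compared in the same fit. Of 12 sensors, kinases and regulators 3 were higher and 3 lower. In so short a list these shares are near the 16.3% and 16.5% over all genes. Among the eIF2α kinases, the ER kinase Eif2ak3 (PERK) averaged 14.2 ± 2.31 CPM in vehicle tumors against 29.4 ± 3.33 CPM in RGS tumors (SD over 3 tumors), with a log2 fold change 1.05 ± 0.23, adjusted p = 0.00162 from edgeR, and the heme-regulated kinase Eif2ak1 had a log2 fold change of 0.94. The double-stranded RNA kinase Eif2ak2 was lower, at -1.13, and the amino acid sensor Eif2ak4 (GCN2) was at 0.02 (adjusted p = 0.960, edgeR). Of the kinases that converge on eIF2α, Eif2ak3 and Eif2ak1 were thus higher, Eif2ak2 was lower and Eif2ak4 did not pass the threshold. The subunit they phosphorylate, Eif2s1, was lower at 258, 391 and 467 CPM with vehicle and 183, 184 and 221 CPM with RGS (log2 fold change -0.93 ± 0.19, adjusted p = 9.21e-04, edgeR). Of the proteases that release ATF6, Mbtps2 was lower (-0.87 on the log2 scale) and Mbtps1 was at -0.00 (adjusted p = 0.997, edgeR), while Atf6b, a relative of Atf6, was higher (0.81). Traf2, Rtcb, Qrich1 and Gcn1l1 did not pass the threshold, with log2 fold changes from 0.20 to 0.39.

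Of 31 other ATF4 targets 18 were lower (58.1%, beside 16.5% over all genes) and 1 higher (3.23%, beside 16.3%), with a median log2 fold change of -0.57. Cth, cystathionine gamma-lyase, which makes cysteine, was at 114, 132 and 139.7 CPM with vehicle and 16.9, 12.3 and 17.1 CPM with RGS (log2 fold change -3.05 ± 0.19, adjusted p = 1.25e-09 from edgeR), a larger difference than in any member. Aldh1l2, Slc1a5 and Jdp2 were lower as well (log2 fold changes -1.72, -1.60 and -1.58), and they encode a mitochondrial folate enzyme, a glutamine transporter and a bZIP repressor. Slc7a11, the cystine importer, was the 1 gene of this list that was higher, at 293, 217 and 180.0 CPM with vehicle and 537, 449 and 407 CPM with RGS (log2 fold change 1.01 ± 0.18, adjusted p = 2.69e-04, edgeR). So the importer of cystine and the enzyme that makes cysteine inside the cell differed in opposite directions. Atf3, a stress factor downstream of ATF4, averaged 20.6 ± 1.91 CPM in vehicle tumors against 23.1 ± 3.14 CPM in RGS tumors (SD over 3 tumors) and did not pass (log2 fold change 0.16 ± 0.22, adjusted p = 0.622, edgeR).

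Of 45 other genes of ER folding, entry and degradation 22 were higher (48.9%, beside 16.3% over all genes) and 4 lower (8.89%, beside 16.5%), with a median log2 fold change of 0.51. Hspa5, which encodes BiP, the main ER chaperone, was at 979.8, 1236 and 1222 CPM with vehicle and 1921, 2295 and 2326 CPM with RGS (log2 fold change 0.93 ± 0.15, adjusted p = 1.45e-04 from edgeR). Hsp90b1, the ER form of HSP90, was at 909, 907 and 834 CPM with vehicle and 1873, 1822 and 2112 CPM with RGS (log2 fold change 1.13 ± 0.15, adjusted p = 9.53e-06, edgeR). Both were at about 2 times the vehicle level, without overlap. The largest increases by the rule for named genes were in Vcp, the ATPase that pulls proteins out of the ER, and in Fkbp14, Fkbp2 and Selenos (log2 fold changes 1.47, 1.41, 1.20 and 1.15). The genes that were lower were the signal peptidase subunits Spcs3 and Spcs1, Sil1, an exchange factor for BiP, and Ssr4 of the translocon-associated complex, whose groups overlapped (-1.62, -0.79, -0.48 and -0.84).

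**Figure D3:**
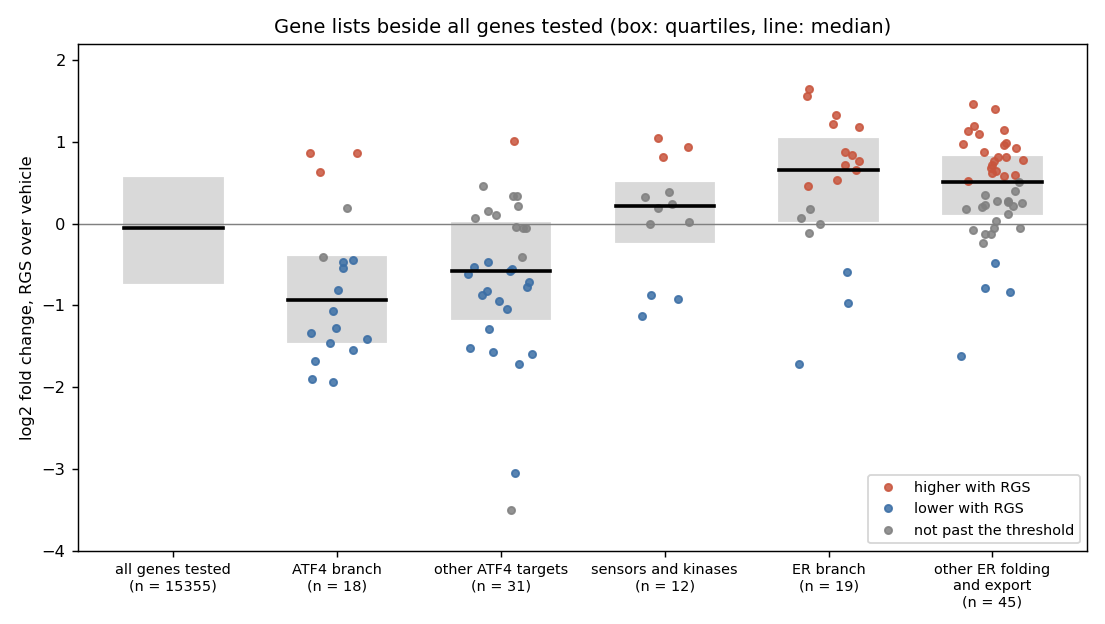
Log2 fold change of RGS over vehicle (y axis) for each gene of 5 lists, 1 point per tested gene, beside all 15355 tested genes, where grey boxes span the quartiles and black lines mark medians. The medians are -0.94 and -0.57 for the ATF4 branch and the other ATF4 targets and 0.66 and 0.51 for the ER branch and the other ER genes, against -0.05 over all genes, and 1 gene, Fgf21 at -7.03, lies below the axis.

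The calls were compared over 18 other fits, 6 with a tumor left out and 12 with another tool, scaling, filter or correction. Of the 31 called members 24 kept their call in all 18, and no called member changed direction. The other 7 were Atf4, Cebpg and Ppp1r15a of the ATF4 branch and Xbp1, Edem1, Sec61b and Atf6 of the ER branch, all with absolute log2 fold changes under 0.8. With a tumor left out, the ATF4 branch had 10 to 13 lower genes and the ER branch 10 to 12 higher genes. All genes together had 1776 to 2698 higher and 1717 to 2551 lower in these fits, beside 2503 and 2533 with every tumor. How many called genes outside the members kept their call was not counted.

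**Figure D4:**
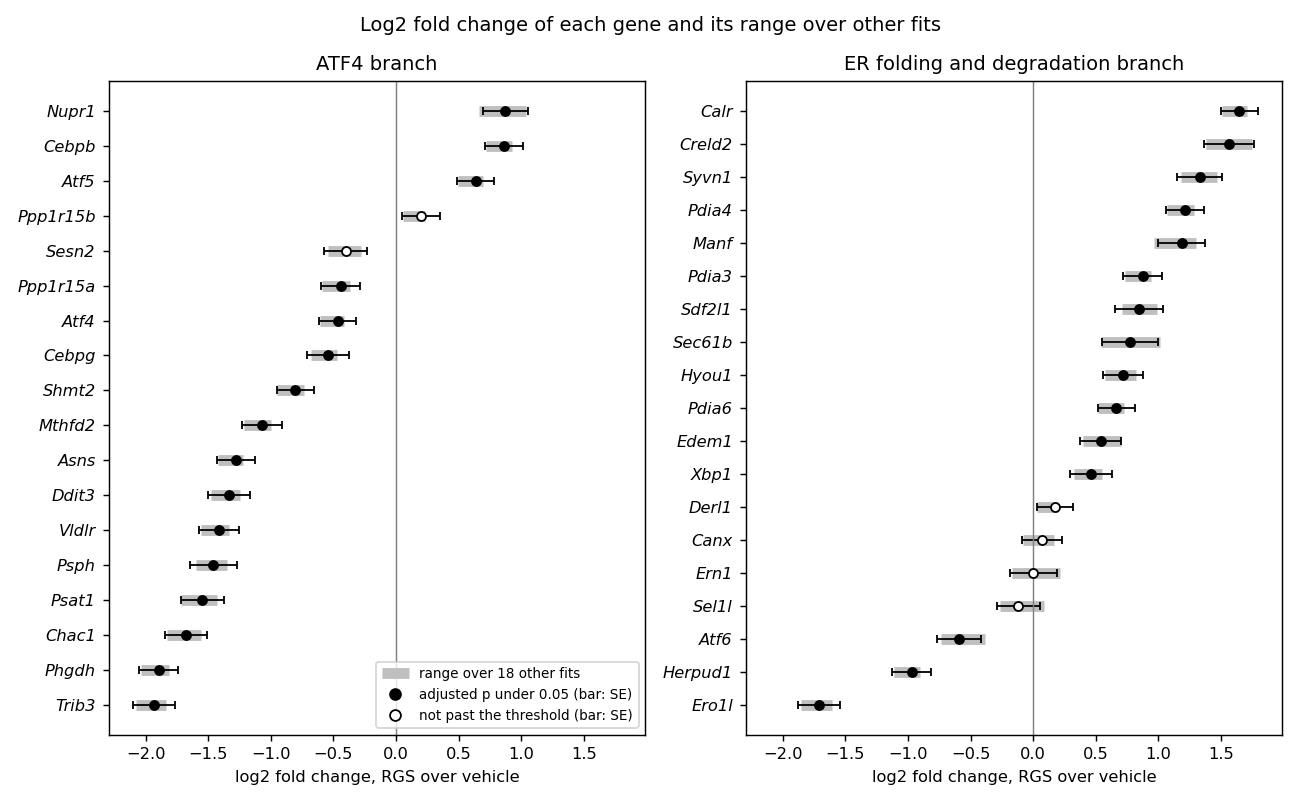
Log2 fold change of RGS over vehicle (x axis) for each tested member, with its standard error as a bar and its range over 18 other fits as a grey band, filled points being past the adjusted p threshold. The bands of filled points stay on 1 side of 0, from Trib3 at -1.93 to Calr at 1.65.

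Levels were compared between genes per kilobase of transcript. On this scale the highest of the 38 genes with vehicle were Phgdh (338 CPM per kb), Atf4 (324), Pdia3 (235) and Calr (175). With RGS they were Calr (547), Pdia3 (431), Cebpb (316) and Atf4 (235). Phgdh went from the first to rank 9 and Ero1l from rank 6 to 18, while Pdia4 went from rank 15 to 6, so the order among these genes differed as well as their levels. Derl3 was the lowest in both groups.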

How the data were processed

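RNA of 6 YUMM3.3 tumors was sequenced as paired-end reads of 150 bases. Per the labels, the submitters' processing notes name cutadapt 1.18, FastQC 0.11.7, STAR 2.7.1a, featureCounts 1.6.4 and the build mm10, while strand setting and handling of reads with several matches are not given in the sources used here. The authors deposited raw counts per gene, 1 column per tumor, and each column name equals a sample title. Gene positions are those of GRCm38: all 38971 identifiers shared with GENCODE M21 have the same start and end.

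From these counts log2 fold changes were fitted in R 4.3.3 with edgeR 4.0.16 (TMM factors, quasi-likelihood F test), keeping genes whose median count reached 5 in either group, as in the study's methods. Standard errors were taken as the absolute fitted change divided by the square root of F. The scripts were tested on simulated data. Alternatives were DESeq2 1.42.0 (the study's tool), limma 3.58.1 voom, other scalings and filters, thinning to the smallest library, a gene length offset, and each tumor left out. A floor of 3 counts was 0.0922 to 0.217 CPM, for counting error only.

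The members, the lists and the tests were chosen with earlier results of these data known, and the other ATF4 targets, sensors and ER genes were put together from general knowledge of the pathways. All members are named, and of the other pathway lists the sensors and kinases, Atf3, Hspa5 and Hsp90b1, and otherwise up to 4 genes a direction by absolute log2 fold change, among those past the threshold, without overlap and with a mean of at least 1 CPM (Ssr4, Fgf21, Pdia5, Ero1lb, genes overlapping a member and some markers were named after their values were seen). Cell type lists covered melanocyte lineage, keratinocyte, fibroblast, endothelial, macrophage, neutrophil, T and NK, B and plasma, muscle, adipocyte and erythroid genes.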

Additional observations from a re-analysis of the deposited data

How the results depend on the processing

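Counts of members kept within 1.5 times their reported values under every alternative fit, with exceptions only for a stricter threshold. No paired analysis was possible because the replicate numbers of the 2 groups are not shared. A minimum size of 1 on the log2 scale, either way, left 0 higher and 9 lower genes in the ATF4 branch. In the ER branch it left 5 higher and 1 lower. It left 1 higher and 1 lower among the sensors and kinases and 8 lower among the other ATF4 targets. Of the other ER genes 6 higher and 1 lower remained, and of all genes 1168 higher and 1450 lower. An adjusted p under 0.01 left 1607 higher and 1562 lower of all genes. The other ATF4 targets had 3 higher genes with DESeq2, 5 with limma voom and 2 after thinning (1 to 5 with a tumor left out, 5 without vehicle replicate 7), and the sensors had 5 higher with limma voom. The cause was not tested. Scaling by library size only shifted the median log2 fold change of all genes by -0.14, to -0.19, and the branch medians to -1.08 (ATF4) and 0.52 (ER). With upper-quartile factors the ATF4 median was -0.98, and with a tumor left out it lay between -0.99 and -0.89.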
